A study of Mus musculus with 15 samples.

Results

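Whole adrenal glands collected 7 days after the end of a dexamethasone treatment were compared with glands collected at the moment the treatment stopped. The comparison takes the 4 arrays whose titles give day 7 and the 3 arrays whose titles give the end of treatment, here called withdrawal, which is 7 of the 15 arrays of the series. All mice were wild-type C57BL/6J males, labelled as 6 weeks old, and both groups had drunk dexamethasone with their water for 14 days. The label is the same in every group and was taken here as the age at the start. On that reading the day 7 mice were 7 days older at harvest than the withdrawal mice. Age at harvest and recovery then cannot be told apart. The other 8 arrays come from glands taken 3 days after withdrawal (4 arrays) and from untreated mice sampled ahead of any treatment (4 arrays). The titles call the arrays of a group biological replicates. The members described are all 21439 genes with a probe set of their own, each measured on an Affymetrix array as a log2 level after robust multi-array averaging (RMA).

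The adrenal cortex makes corticosterone in its inner zone, the zona fasciculata, under control of ACTH from the pituitary. ACTH binds the melanocortin receptor MC2R, which needs the accessory protein MRAP to reach the cell surface, and raises cAMP, which drives both cholesterol supply and the steroid enzymes. Dexamethasone is a synthetic glucocorticoid that shuts off ACTH secretion; the fasciculata then shrinks, and when the drug is withdrawn ACTH returns and the cortex is rebuilt. The outer zone, the zona glomerulosa, makes aldosterone and depends mainly on angiotensin II and potassium.

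Within a group, each array's mean correlation with its fellows over all genes lay between 0.9875 and 0.9908, and no pair of arrays held identical values. A mean across groups could be as high, 0.9914 for the third day 3 array with the day 7 arrays. These correlations do not measure RNA quality. Markers of the labelled tissue were present in all arrays of both groups. Star (10.51 to 11 over the 7 arrays), Cyp11a1 (10.29 to 10.78) and the chromaffin granule gene Chga (10.3 to 10.98) were far above 1.6, the median of all values in the table, which serves here as the floor of the scale. In whole glands, fewer cells of a type and less RNA per cell cannot be told apart.

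At day 7, 210 genes were higher than at withdrawal (0.98% of all genes tested) and 194 were lower (0.905%), 1.88% in all, by limma with an adjusted p under 0.05. Of these, 53 rose and 46 fell by at least 2-fold. An unadjusted p under 0.05 by limma was reached by 2902 of the 21439 genes in either direction. That is the background for the unadjusted counts given for lists below. The 2 groups did not overlap for 12.3% of all genes, 6.46% higher and 5.89% lower at day 7. Counts depended on the scaling: centring each array on its own median gave 391 higher and 134 lower genes. The median difference over all genes was 0.004 on the log2 scale, and that centring moved it by 0.073.

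**Figure D1:**
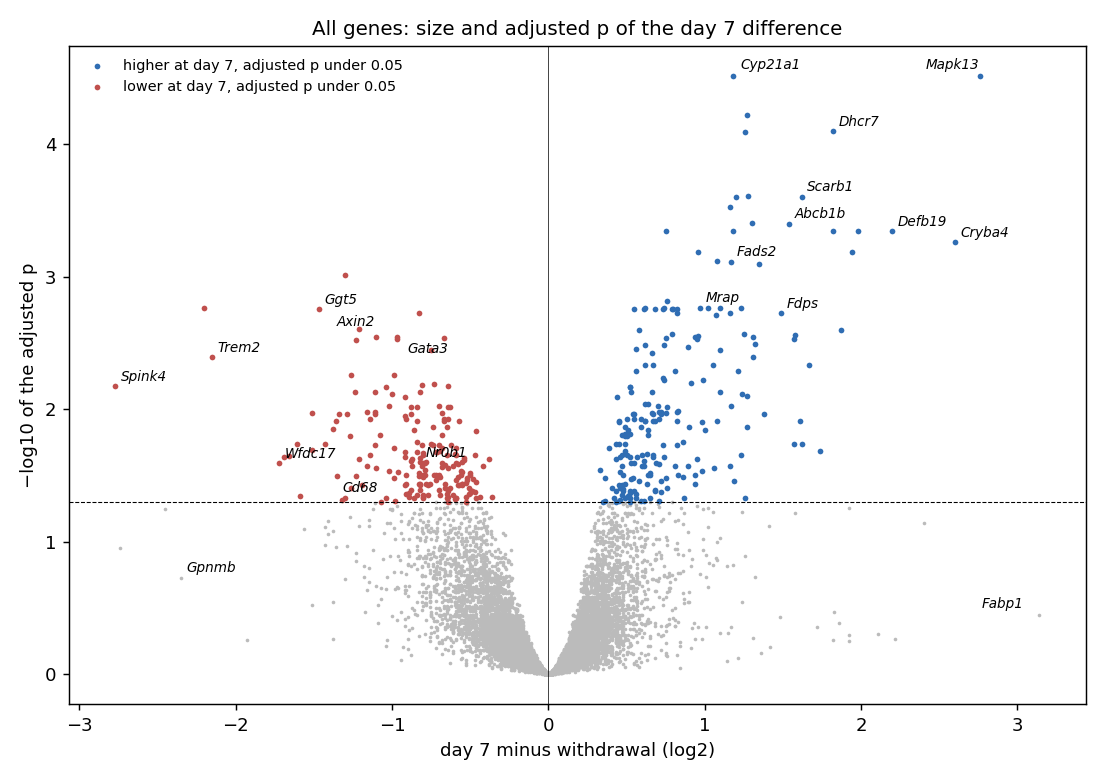
Difference of day 7 from withdrawal (x axis, log2) against the adjusted p on a −log10 scale (y axis) for 21439 genes, with the threshold of 0.05 as a dashed line. Blue points are the 210 genes that were higher and red points the 194 that were lower; Gpnmb and Fabp1 lie far from 0 without passing.

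Of the measured genes of ACTH reception and cAMP signalling 2 of 16 were higher at day 7, and of those of steroid synthesis 6 of 10. Mrap, the receptor's accessory protein, was at 7.43, 7.24 and 7.36 in the withdrawal arrays and at 8.52, 8.15, 8.23 and 8.37 in the day 7 arrays. Every day 7 array lay above every withdrawal array, and the difference of 0.97 ± 0.13 (SE, log2; 1.96-fold) passed the test with an adjusted p of 0.00171. Prkar2b, a regulatory subunit of protein kinase A, read 6.85, 6.8 and 7 at withdrawal and 7.87, 7.81, 8.06 and 8.7 at day 7 (1.23 ± 0.17, adjusted p = 0.00171), again without overlap, and the fourth day 7 array stood highest. Both calls held when each of the 7 arrays was left out in turn (adjusted p at most 0.0115). They were the only members of the ACTH receptor and cAMP list that passed, with a list median of 0.10 beside 0.00 over all genes. The receptor gene Mc2r itself averaged 9.29 ± 0.07 (SD, n = 3) at withdrawal and 9.44 ± 0.09 (SD, n = 4) at day 7, overlapped between groups and did not pass (adjusted p = 0.598).

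Of 10 measured steroid synthesis genes, 6 were higher and none lower, with a list median of 0.37. Cyp21a1, the 21-hydroxylase, read 8.09, 8.44 and 8.36 at withdrawal and 9.49, 9.42, 9.45 and 9.53 at day 7. That is a rise of 1.18 ± 0.09 (2.26-fold, adjusted p = 3.04e-05), and the spread among day 7 arrays was 0.05 (SD, n = 4). Cyp11b1, the 11β-hydroxylase that completes corticosterone, stood at 9.19, 8.78 and 9.23 against 9.74, 9.71, 9.8 and 9.69 (0.67 ± 0.11, adjusted p = 0.00466), again with no overlap. Tspo, a cholesterol-binding protein of the outer mitochondrial membrane, rose by 0.68 ± 0.13 (adjusted p = 0.0122), and Fdx1, the ferredoxin that feeds electrons to the mitochondrial P450 enzymes, by 0.66 ± 0.12 (adjusted p = 0.0107). These 4 calls held with each array left out. With only the arrays of the 2 groups in the fit, however, 1 of the 6 steroid synthesis calls was left, that of Cyp21a1.

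Smaller rises were found at the first steps of the pathway. Star, which carries cholesterol into mitochondria, read 10.51, 10.61 and 10.54 at withdrawal and 10.87, 10.86, 10.9 and 11 at day 7 (0.36 ± 0.08, 1.28-fold, adjusted p = 0.0331). Cyp11a1, the side-chain cleavage enzyme, read 10.29, 10.37 and 10.44 against 10.78, 10.73, 10.77 and 10.75 (0.39 ± 0.08, 1.31-fold, adjusted p = 0.0196). Neither gene overlapped between groups, but Star lost its call whichever of the 7 arrays was left out (adjusted p up to 0.107), and Cyp11a1 without withdrawal array 1 or 2 or day 7 array 1 (up to 0.0788). Hsd3b1 averaged 9.18 ± 0.21 (SD, n = 3) and 9.36 ± 0.15 (SD, n = 4), with overlap, and did not pass (adjusted p = 0.606); Cyp17a1 sat at the floor of the scale in all but 1 of the 7 arrays, between 0.9 and 2.14.

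Markers of the zona fasciculata gave 7 higher and 0 lower members of 10 measured, with a median of 0.66. They share Mrap, Cyp21a1, Cyp11b1, Star and Fdx1 with the groups above, and add Scarb1 and Abcb1b. Abcb1b, an efflux transporter of the multidrug resistance family, read 8.65, 7.78 and 8.74 at withdrawal and 9.93, 9.96, 10.01 and 9.82 at day 7 (1.54 ± 0.17, 2.9-fold, adjusted p = 0.000397). The day 7 arrays had an SD of 0.08 (n = 4), while the second withdrawal array was clearly the lowest of its group. With only the arrays of the 2 groups in the fit, the count was 4. Of the 5 measured X zone markers none passed (0 at an unadjusted p under 0.05), and their list mean was 2.33 to 2.49 at withdrawal and 2.3 to 2.58 at day 7.

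**Figure D2:**
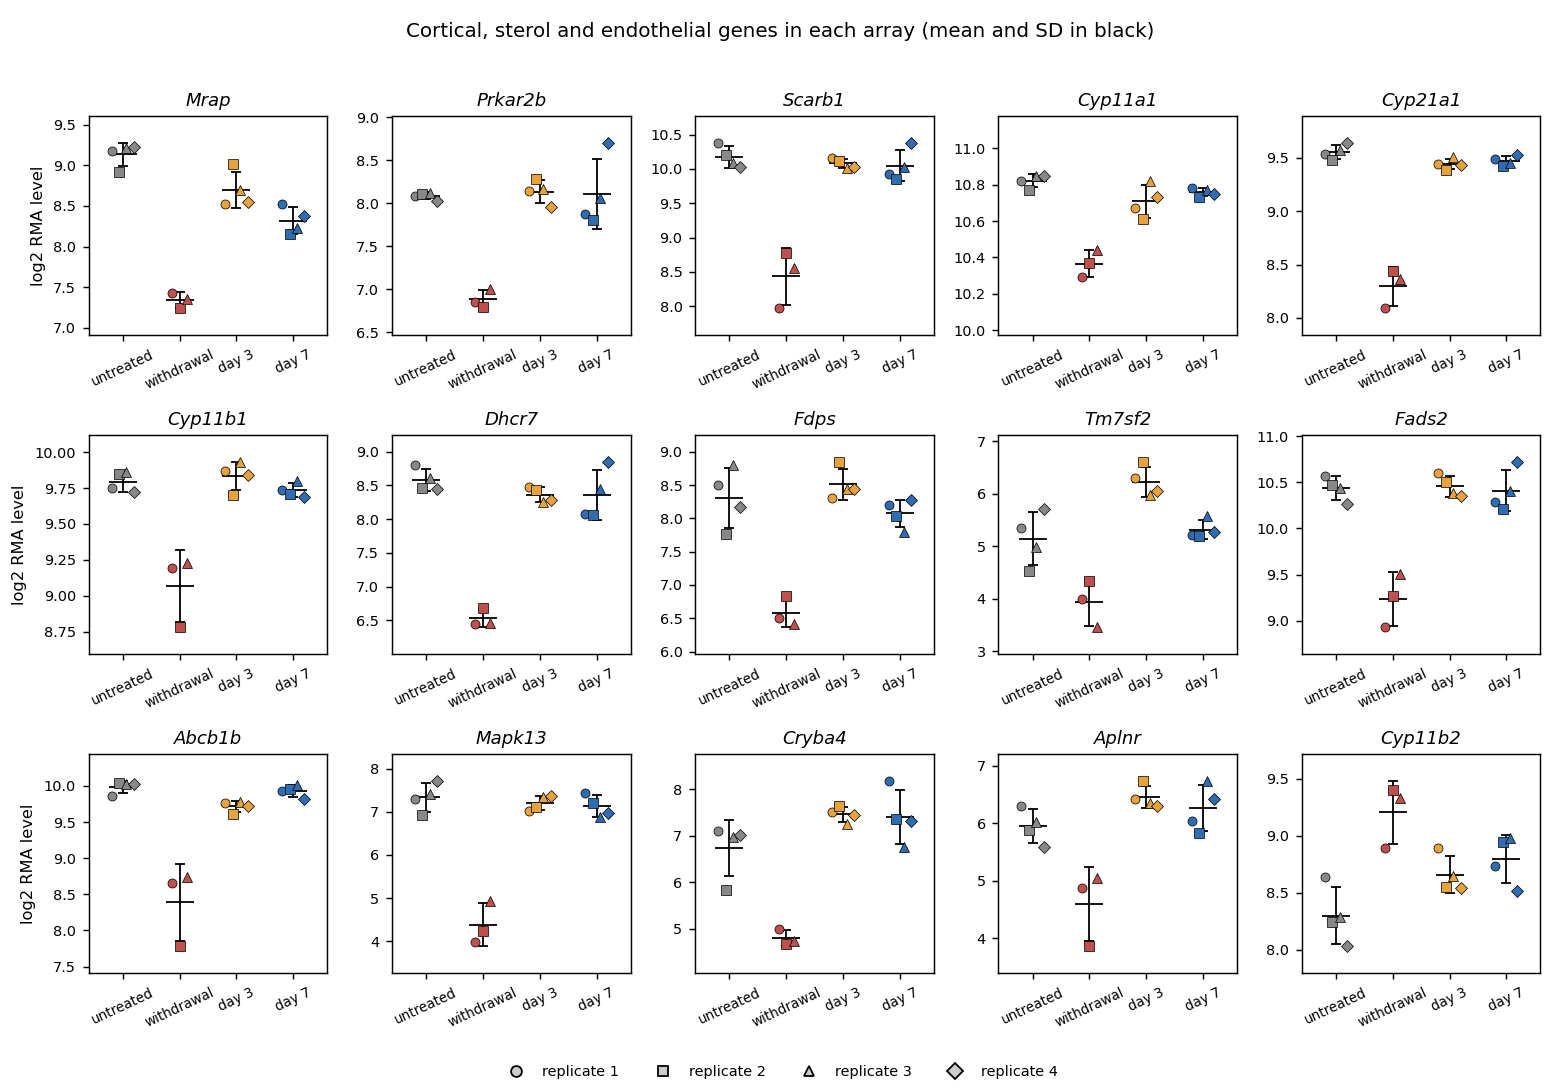
Log2 RMA level (y axis) of 15 genes in each array of the 4 groups (x axis); symbols mark replicate numbers, and black bars give the mean and SD. For all genes shown but Cyp11b2, the 4 day 7 arrays lie above the 3 withdrawal arrays; for Cyp11b2 they overlap.

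The supply of cholesterol was the next group with several calls. The adrenal takes up cholesterol esters from high-density lipoprotein through SCARB1 and also makes cholesterol itself, in steps that run from acetyl-CoA through mevalonate and squalene to lanosterol and then to cholesterol. Scarb1 read 7.97, 8.78 and 8.55 at withdrawal and 9.93, 9.86, 10.03 and 10.38 at day 7, a rise of 1.62 ± 0.17 (3.07-fold, adjusted p = 0.000248) with a gap of more than 1 log2 unit between the groups. Of the 13 measured genes of cholesterol uptake, storage and transport, Scarb1 was the one that rose, and Apoe, which encodes apolipoprotein E, the one that fell (-0.57 ± 0.13, adjusted p = 0.0372). The list median was -0.19. Scarb1 held with each array left out, whereas Apoe lost its call without withdrawal array 2 or 3 or day 7 array 1, 2 or 4 (adjusted p up to 0.16).

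Among 8 measured genes from acetoacetyl-CoA to squalene epoxide, Fdps passed. This gene encodes farnesyl diphosphate synthase and read 6.51, 6.83 and 6.41 at withdrawal and 8.2, 8.03, 7.8 and 8.27 at day 7 (1.49 ± 0.21, 2.81-fold, adjusted p = 0.00188). Among 9 measured genes from lanosterol to cholesterol, 4 rose and none fell, with a median of 0.65, and all 9 means were higher at day 7. Dhcr7, which catalyses the last step of one branch, read 6.45, 6.69 and 6.46 at withdrawal and 8.08, 8.06, 8.45 and 8.85 at day 7 (1.82 ± 0.16, 3.53-fold, adjusted p = 7.97e-05).

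The sterol reductase gene Tm7sf2 read 4, 4.35 and 3.46 at withdrawal and 5.22, 5.19, 5.58 and 5.28 at day 7 (1.38 ± 0.25, adjusted p = 0.0108). Lanosterol synthase, Lss, read 3.71, 3.57 and 4.01 against 4.4, 4.62, 4.4 and 5.36 (0.94 ± 0.21, adjusted p = 0.0368), and the methylsterol oxidase gene Msmo1 rose by 0.65 ± 0.15 (adjusted p = 0.0463). None of these overlapped between the groups, and the fourth day 7 array was the highest for Dhcr7, Lss and Msmo1. Dhcr7, Fdps and Tm7sf2 held with each array left out; Lss lost its call without withdrawal array 1 or 2 or day 7 array 2 or 4 (adjusted p up to 0.153), and Msmo1 lost it whichever array was left out (up to 0.145). With only the arrays of the 2 groups in the fit, the count from lanosterol to cholesterol was 2 in place of 4. In the sterol-sensing list 0 of 10 members passed by limma (6 at an unadjusted p under 0.05, 4 of them higher). Insig1, which holds the sterol sensor in the endoplasmic reticulum and is itself a target of SREBP2, came closest, with 6.08, 6.33 and 6.28 at withdrawal, 6.6, 6.84, 7.29 and 7.36 at day 7 and an adjusted p of 0.0502. Srebf2, the gene of that factor, averaged 6.2 ± 0.42 (SD, n = 3) at withdrawal and 6.12 ± 0.44 (SD, n = 4) at day 7.

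Dhcr7, Fdps, Tm7sf2 and Lss had the largest rises among the cholesterol synthesis genes that passed, and their promoters are shown for that reason. RefSeq windows (GRCm38.p6, 250 bases before to 50 after a transcript start) were available for 3 of these 4. They are shown 5′ to 3′ on the gene's strand, at chr7:143829964-143830263 (plus strand) for Dhcr7, chr19:6067801-6068100 (minus strand) for Tm7sf2 and chr10:76531355-76531654 (plus strand) for Lss. Capitals mark matches on either strand to CCAAT, the box bound by NF-Y, which reads ATTGG on the opposite strand. Dhcr7 has 3 windows, of which the one with the most matches is shown.
Dhcr7: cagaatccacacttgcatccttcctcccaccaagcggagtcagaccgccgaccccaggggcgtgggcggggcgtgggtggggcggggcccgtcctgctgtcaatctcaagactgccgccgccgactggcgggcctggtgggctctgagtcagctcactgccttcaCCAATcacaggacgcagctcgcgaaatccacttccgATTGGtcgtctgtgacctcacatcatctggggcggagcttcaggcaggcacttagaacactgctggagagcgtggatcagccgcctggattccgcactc
Tm7sf2: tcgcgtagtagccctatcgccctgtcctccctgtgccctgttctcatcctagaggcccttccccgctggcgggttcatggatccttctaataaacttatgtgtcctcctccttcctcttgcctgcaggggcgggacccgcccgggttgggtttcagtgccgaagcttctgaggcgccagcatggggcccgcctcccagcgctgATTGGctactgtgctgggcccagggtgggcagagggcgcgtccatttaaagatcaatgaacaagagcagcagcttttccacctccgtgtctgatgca
Lss: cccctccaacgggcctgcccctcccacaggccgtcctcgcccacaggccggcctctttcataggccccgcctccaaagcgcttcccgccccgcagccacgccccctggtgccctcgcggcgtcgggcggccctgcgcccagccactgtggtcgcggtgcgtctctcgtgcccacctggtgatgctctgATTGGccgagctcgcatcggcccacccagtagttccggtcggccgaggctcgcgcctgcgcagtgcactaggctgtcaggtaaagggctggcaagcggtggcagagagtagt
The Dhcr7 window shown holds 2 CCAAT matches in opposite orientation, and those of Tm7sf2 and Lss hold 1 each. The Dhcr7 windows not shown hold 0 CCAAT matches. Over both cholesterol synthesis lists, CCAAT was found in 15 of 19 windows (16 of 21 genes had a window), which is 78.9%, beside 37.4% of all 32851 windows. The mitosis list had a like share, 22 of 28 windows (78.6%), and the steroid synthesis list had 3 of 7 (42.9%). The sterol regulatory element, searched as TCACNCCAC on both strands, was in 1 of the 19 cholesterol windows and in 1.24% of all windows. An NR5A1 site, CAAGGTCA, was in 1 of the 19 and in 1.56% of all. That 1 is a Dhcr7 window not shown, at chr7:143822917-143823216. TTTGAA, the CHR element of cell cycle genes, was also in 1 of the 19, beside 17.9% of all. None of the 4 motifs shares letters with another in the 3 windows shown, which hold CCAAT matches alone. Such matches describe letters in these windows and are not measured binding sites.

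Fatty acid genes followed with 4 higher and 0 lower of 14 measured (median 0.19). The desaturases that make polyunsaturated fatty acids led: Fads2 read 8.93, 9.27 and 9.51 at withdrawal and 10.29, 10.21, 10.41 and 10.72 at day 7 (1.17 ± 0.14, adjusted p = 0.000766), and Fads1 rose by 1.10 ± 0.15 (adjusted p = 0.00171). Acly, which makes cytosolic acetyl-CoA from citrate, rose by 0.79 ± 0.12 (adjusted p = 0.00271) and Me1, a source of NADPH, by 0.57 ± 0.12 (adjusted p = 0.0229). In the lipid droplet list, G0s2, an inhibitor of the triglyceride lipase ATGL, was the 1 of 13 members that passed. It fell, from 7.71, 7.8 and 7.02 at withdrawal to 6.71, 6.65, 6.78 and 6.7 at day 7 (-0.80 ± 0.16, adjusted p = 0.0214). Fads2, Fads1 and Acly held with each array left out; Me1 lost its call without withdrawal array 1 or 2 or day 7 array 1, 2 or 3 (adjusted p up to 0.117), and G0s2 without withdrawal array 1 or 2 or day 7 array 1, 2 or 4 (up to 0.11).

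Mitochondrial genes showed small differences. In the oxidative phosphorylation list 21 of 22 means were higher at day 7, with a median of 0.22, and 2 members passed. These were Uqcrfs1, the Rieske protein of complex III (5.75, 5.75 and 5.7 at withdrawal; 6.27, 6.27, 6.06 and 6.15 at day 7; adjusted p = 0.0122), and Ndufs8 of complex I (0.43 ± 0.08, adjusted p = 0.0183). Their count changed with the settings, from 0 with the replicate numbers as a block or with only the arrays of the 2 groups to 6 with median centring. Fech, the last enzyme of heme synthesis, rose by 0.42 ± 0.10 (adjusted p = 0.0463, 1 of 8 measured), and Prdx3, the mitochondrial peroxiredoxin, by 0.65 ± 0.14 (adjusted p = 0.0304, 1 of 14 antioxidant genes). Of these 4, Uqcrfs1 held with each array left out; Ndufs8 lost its call without withdrawal array 2 or day 7 array 1 or 4 (adjusted p up to 0.0843), Prdx3 without withdrawal array 1 or 2 or day 7 array 1, 2 or 4 (up to 0.142) and Fech whichever array was left out (up to 0.191).

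**Figure D3:**
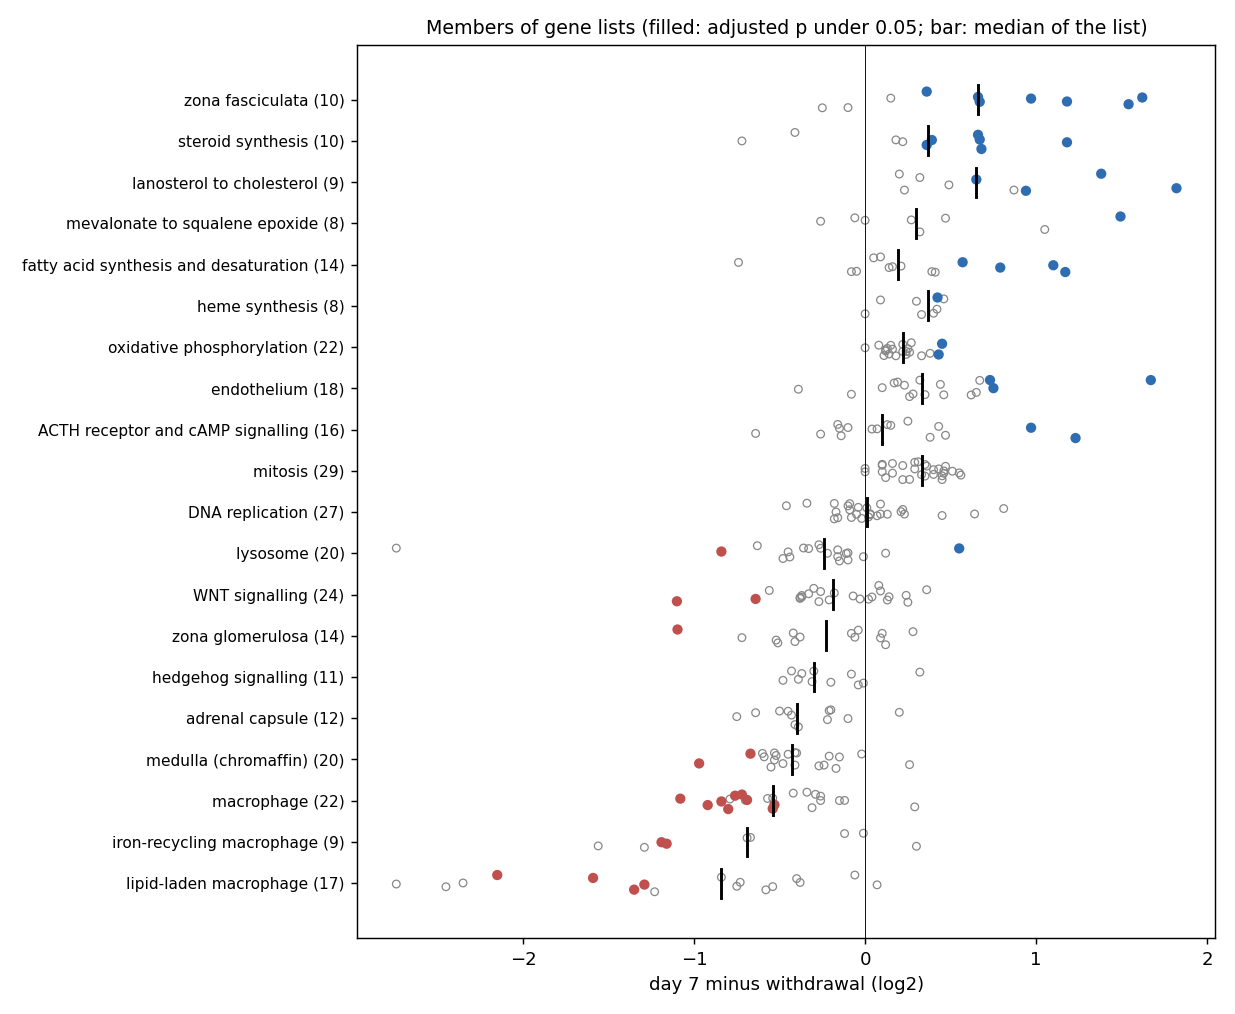
Difference of day 7 from withdrawal (x axis, log2) for each measured member of 20 gene lists (y axis, number measured in parentheses). Filled points passed the test, blue higher and red lower at day 7; the black bar is the list's median, from 0.66 for zona fasciculata to -0.84 for lipid-laden macrophages.

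Several of the largest rises lay outside these groups. The stress-activated kinase gene Mapk13 (p38δ) had the largest one among named genes, from 3.97, 4.23 and 4.94 at withdrawal to 7.45, 7.21, 6.89 and 6.98 at day 7 (2.76 ± 0.22, 6.75-fold, adjusted p = 3.04e-05). Cryba4, which encodes a lens crystallin, went from 5, 4.66 and 4.73 to 8.18, 7.36, 6.75 and 7.32 (2.60 ± 0.31, 6.06-fold, adjusted p = 0.00055). For both genes the groups were separated by more than 1.5 log2 units. The beta-defensin gene Defb19 rose by 2.20 ± 0.25 (4.59-fold), the tachykinin receptor gene Tacr2 by 1.98 ± 0.23 (3.93-fold), and the kinase gene Pim1, whose second probe set also passed (1.07, adjusted p = 0.0446), by 1.82 ± 0.21 (3.53-fold); all had an adjusted p of 0.000453. These 5 rises held with each array left out.

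Further rises of at least 2-fold were those of Cib4 (1.87 ± 0.27), of the carboxylesterase gene Ces2e (1.74 ± 0.35), of the protocadherin gene Pcdh17 (1.61 ± 0.30), of Tmem144 (1.58 ± 0.23) and of Bmp7, a ligand of the bone morphogenetic protein family (1.57 ± 0.24). Their adjusted p values lay between 0.00254 (Cib4) and 0.0207 (Ces2e). Ces2e lost its call without withdrawal array 1 or 2 or day 7 array 1 or 4 (adjusted p up to 0.0861), and Pcdh17 without withdrawal array 1 (0.0568). Serpina6 encodes corticosteroid-binding globulin, the plasma carrier of corticosterone, which the liver secretes. It read 3.1, 3.18 and 1.87 at withdrawal and 5.07, 4.07, 4.15 and 4.07 at day 7 (1.62 ± 0.32, adjusted p = 0.0182), with the first day 7 array above the others; without withdrawal array 3 its adjusted p was 0.0594.

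Liver transcripts varied between arrays in the same range of levels. The mean of 7 liver genes was 3.82 to 3.98 at withdrawal and 5.78, 5.28, 3.82 and 5.35 in the day 7 arrays, and 1 untreated array and 2 day 3 arrays also stood above 5. Alb read 2.86, 2.93 and 2.98 at withdrawal and 5.98, 5.88, 2.8 and 5.94 at day 7. None of the 7 passed (0 at an unadjusted p under 0.05), nor did Fabp1, which had the largest difference of all genes (3.14 ± 1.44, adjusted p = 0.357). In the third day 7 array, where the liver genes were at their withdrawal level, Serpina6 was at 4.15 and Ces2e at 4.12. Both lay within the range of the other day 7 arrays. Liver means in the day 3 arrays were 7.09, 3.46, 5.42 and 3.67. Ces2e there read 3.86, 1.96, 3.17 and 3.34, and Serpina6 3.88, 3.46, 4.37 and 4.41. In the untreated arrays the liver means were 3.77, 3.22, 3.56 and 5.52. Ces2e there read 3, 2.16, 2.47 and 3.05, and Serpina6 3.66, 3.78, 4.03 and 4.08. The part of liver RNA in these and the other values was not tested. Kidney (1.01 to 1.19 over the 7 arrays), B cell (0.98 to 1.18) and red blood cell genes (1.22 to 1.51) had list means at the floor.

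Few genes of the outer cortex passed. Aldosterone synthase, Cyp11b2, read 8.89, 9.4 and 9.33 at withdrawal and 8.74, 8.95, 8.98 and 8.52 at day 7; the groups overlapped and the difference of -0.41 ± 0.16 did not pass (adjusted p = 0.261). Hsd3b6, the 3β-hydroxysteroid dehydrogenase of the glomerulosa, read 8.18, 7.98 and 7.77 against 6.84, 7.09, 7.61 and 7.49, with no overlap. The difference of -0.72 ± 0.32 did not pass by limma (adjusted p = 0.342). Its SE draws on all 4 groups, whose SDs were 0.2 at withdrawal, 0.36 at day 7, 0.59 at day 3 and 0.58 untreated. Of 14 glomerulosa markers, Axin2 alone passed and fell, and the list median was -0.23; 6 members were lower at an unadjusted p under 0.05 and 0 higher.

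Axin2, a negative regulator and target of WNT and β-catenin signalling, read 6.77, 6.4 and 6.57 at withdrawal and 5.24, 5.54, 5.71 and 5.46 at day 7 (-1.10 ± 0.16, 2.14-fold lower, adjusted p = 0.00282). A second probe set pointed the same way (-0.59, adjusted p = 0.13), and the call of the first held with each array left out. Lgr5, a receptor for R-spondins and also a WNT target, fell by 0.64 (SE 0.15, adjusted p = 0.046) but lost its call in every fit that left out a single array other than the third of day 7 (adjusted p up to 0.139), in which it stood at 7.34 beside 6.77 to 6.86 in the other 3. These were 2 of 24 WNT genes, with a median of -0.19. Wnt4 (-0.38, adjusted p = 0.26) and the capsule ligand Rspo3 (-0.41, adjusted p = 0.471) overlapped between the groups.

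Nr0b1, which encodes DAX1, a repressor of the steroidogenic factor SF1, fell from 6.26, 6.47 and 6.6 to 5.84, 5.87, 5.44 and 5.34 (-0.82 ± 0.17, adjusted p = 0.0251), the 1 of 14 cortical transcription factors that passed; it lost its call without withdrawal array 2 or 3 or day 7 array 3 or 4 (adjusted p up to 0.0909). Nr5a1, the gene of SF1, read 5.88, 6.01 and 6.14 against 6.25, 6.45, 6.36 and 6.63, with no overlap, and did not pass (0.41 ± 0.11, adjusted p = 0.083), except with median centring (0.49, adjusted p = 0.0416). Of the hedgehog genes, which signal from cortex to capsule, 0 of 11 passed by limma (3 at an unadjusted p under 0.05, 2 of them lower), with Shh at 5.75 ± 0.33 (SD, n = 3) and 5.67 ± 0.12 (SD, n = 4), Ptch1 at 7.27 and 6.96 and Gli1 near the floor at 1.45 and 1.25. Of 12 capsule markers, 0 passed, 11 means were lower and 7 members were lower at an unadjusted p under 0.05, with a median of -0.40.

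No measured member of the mitosis and DNA replication lists passed at day 7. All 29 mitosis means were higher than at withdrawal, with a median of 0.33, and 0 passed by limma. At an unadjusted p under 0.05 there were 4, all higher, a share like that of all genes (2902 of 21439, either direction). Mki67, a marker of cycling cells, read 3.86, 4.41 and 4.6 at withdrawal and 4.63, 4.23, 4.99 and 5.11 at day 7, and Top2a, the mitotic topoisomerase, 4.63, 3.7 and 4.63 against 4.9, 4.34, 4.99 and 4.88; both overlapped (adjusted p = 0.394 and 0.388). The list mean was 3.16 to 3.43 at withdrawal, 3.21 to 3.83 at day 7 and 4.19 to 4.48 in the day 3 arrays, so the day 7 and day 3 arrays did not overlap. Of 27 DNA replication genes 0 passed (2 at an unadjusted p under 0.05, both higher), with a median of 0.01. With median centring or the filter on dim probe sets 1 of them was higher, as also without day 7 array 2.

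Macrophage genes were lower at day 7. Macrophages take up debris and lipid, and those loaded with lipid express a set that includes Gpnmb, Trem2 and Cd68. Of 22 general macrophage markers, 9 fell and none rose (median -0.54), and of 17 markers of lipid-laden macrophages 4 fell and none rose (median -0.84). Trem2, a lipid receptor, read 6.13, 6.69 and 5.81 at withdrawal and 4.1, 3.19, 4.79 and 4.16 at day 7 (-2.15 ± 0.34, 4.45-fold lower, adjusted p = 0.00406). Every day 7 array was lower than every withdrawal array, with the second the lowest and the third the highest.

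Cd68, a lysosomal glycoprotein of phagocytes, read 8.73, 9.11 and 8.33 against 7.31, 6.79, 8.21 and 7.18 (-1.35 ± 0.30, adjusted p = 0.0319), and the signalling lymphocyte receptor gene Cd84 read 5.55, 6.27 and 5.32 against 4.27, 3.32, 4.97 and 3.93 (-1.59 ± 0.38, adjusted p = 0.0453). The third day 7 array lay within 0.4 of the lowest withdrawal array for both. Lgals3, galectin 3, fell by 1.29 (SE 0.23, adjusted p = 0.0108). Among general markers Mpeg1, the pore-forming perforin 2, fell by 1.08 (SE 0.21, adjusted p = 0.0157), Laptm5 by 0.92, the complement gene C1qb by 0.84, and the signalling adaptors Tyrobp and Fcer1g by 0.80 and 0.76. Adgre1, a surface receptor used to identify macrophages, C1qc, the factor gene Spi1 and Csf1r, the receptor for macrophage growth factor, completed the 9, with differences between -0.53 and -0.72; Csf1r sat at the threshold. Trem2 held with each array left out, while Mpeg1 (0.0868), C1qb (0.0654) and Lgals3 (0.0537) exceeded an adjusted p of 0.05 without withdrawal array 2.

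Outside the lists, the myeloid genes Wfdc17 (-1.72 ± 0.37, adjusted p = 0.0255), Cd53 (-1.36 ± 0.25, adjusted p = 0.0122) and Blnk, an adaptor shared by B cells and macrophages (-1.51 ± 0.30, adjusted p = 0.0201), were among the 14 largest falls. Cd53 lost its call without withdrawal array 2 (adjusted p = 0.0721), Blnk without withdrawal array 1 or 2 or day 7 array 2 or 4 (up to 0.105), and Wfdc17 without withdrawal array 1 or 2 or day 7 array 1, 2 or 4 (up to 0.102). The chemokine genes Cxcl16 (-1.04 ± 0.17, adjusted p = 0.00674) and Ccl9 (-1.30 ± 0.31, adjusted p = 0.0465) fell, 2 of 19 measured. Spic, the factor that defines iron-recycling macrophages, read 4.44, 4.13 and 3.07 at withdrawal and 2.98, 2.7, 2.7 and 2.5 at day 7 (-1.16 ± 0.25, adjusted p = 0.0266), and the metal transporter gene Slc11a1 fell by 1.19 (adjusted p = 0.0372), 2 of 9. Of 20 lysosome genes, Ctss fell (-0.84 ± 0.20, adjusted p = 0.0443), whereas Atp6v1h, a subunit of the proton pump, rose (0.55 ± 0.08, adjusted p = 0.00175). Cxcl16 and Atp6v1h held with each array left out; Ccl9, Slc11a1 and Ctss lost their calls without withdrawal array 1 or 2 or day 7 array 1, 2 or 4 (adjusted p up to 0.195), and Spic without withdrawal array 1 or 2 or day 7 array 2 or 4 (up to 0.126).

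The day 7 glands differed among themselves in these genes. Gpnmb, the gene with the widest range, read 9.03, 9.81 and 8.77 at withdrawal and 7.19, 3.78, 8.98 and 7.45 at day 7. The third day 7 array lay within the withdrawal range and the second far below all others, and the difference of -2.35 ± 0.82 did not pass (adjusted p = 0.187); without the third day 7 array it was -3.06 and passed (adjusted p = 0.0493). Atp6v0d2 (7.05, 8.01 and 6.79 against 4.88, 1.67, 6.78 and 4.86; adjusted p = 0.111) and the lectin gene Clec4d (5.31, 6.11 and 4.35 against 3.1, 1.37, 4.43 and 2.35; adjusted p = 0.0563) likewise had their lowest day 7 value in the second array and their highest in the third. The mean of the 17 lipid-laden markers was 7.23, 7.71 and 7.13 at withdrawal, 6.34, 5.39, 7.02 and 6.14 at day 7 and 4.96 to 5.19 in untreated glands, so that each of the 4 day 7 glands lay between those ranges.

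These counts leaned on single arrays. Without the third day 7 array, 12 lipid-laden markers were lower instead of 4; without the second withdrawal array, which had the highest lipid-laden mean, 1 was, and the count of general macrophage markers fell from 9 to 0. Cd68, Laptm5, Tyrobp and Fcer1g each lost their call without withdrawal array 1 or 2 or day 7 array 1, 2 or 4 (adjusted p up to 0.167), and Cd84 lost it in every such fit but the one without the third day 7 array (up to 0.193). With the arrays of the 2 groups alone the general macrophage count was also 0. The third day 7 array also had the highest mean of 20 medulla markers, 7.67 beside 7.15 to 7.23 in the other 3, and the lowest liver mean; the part of this in its macrophage values was not tested.

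**Figure D4:**
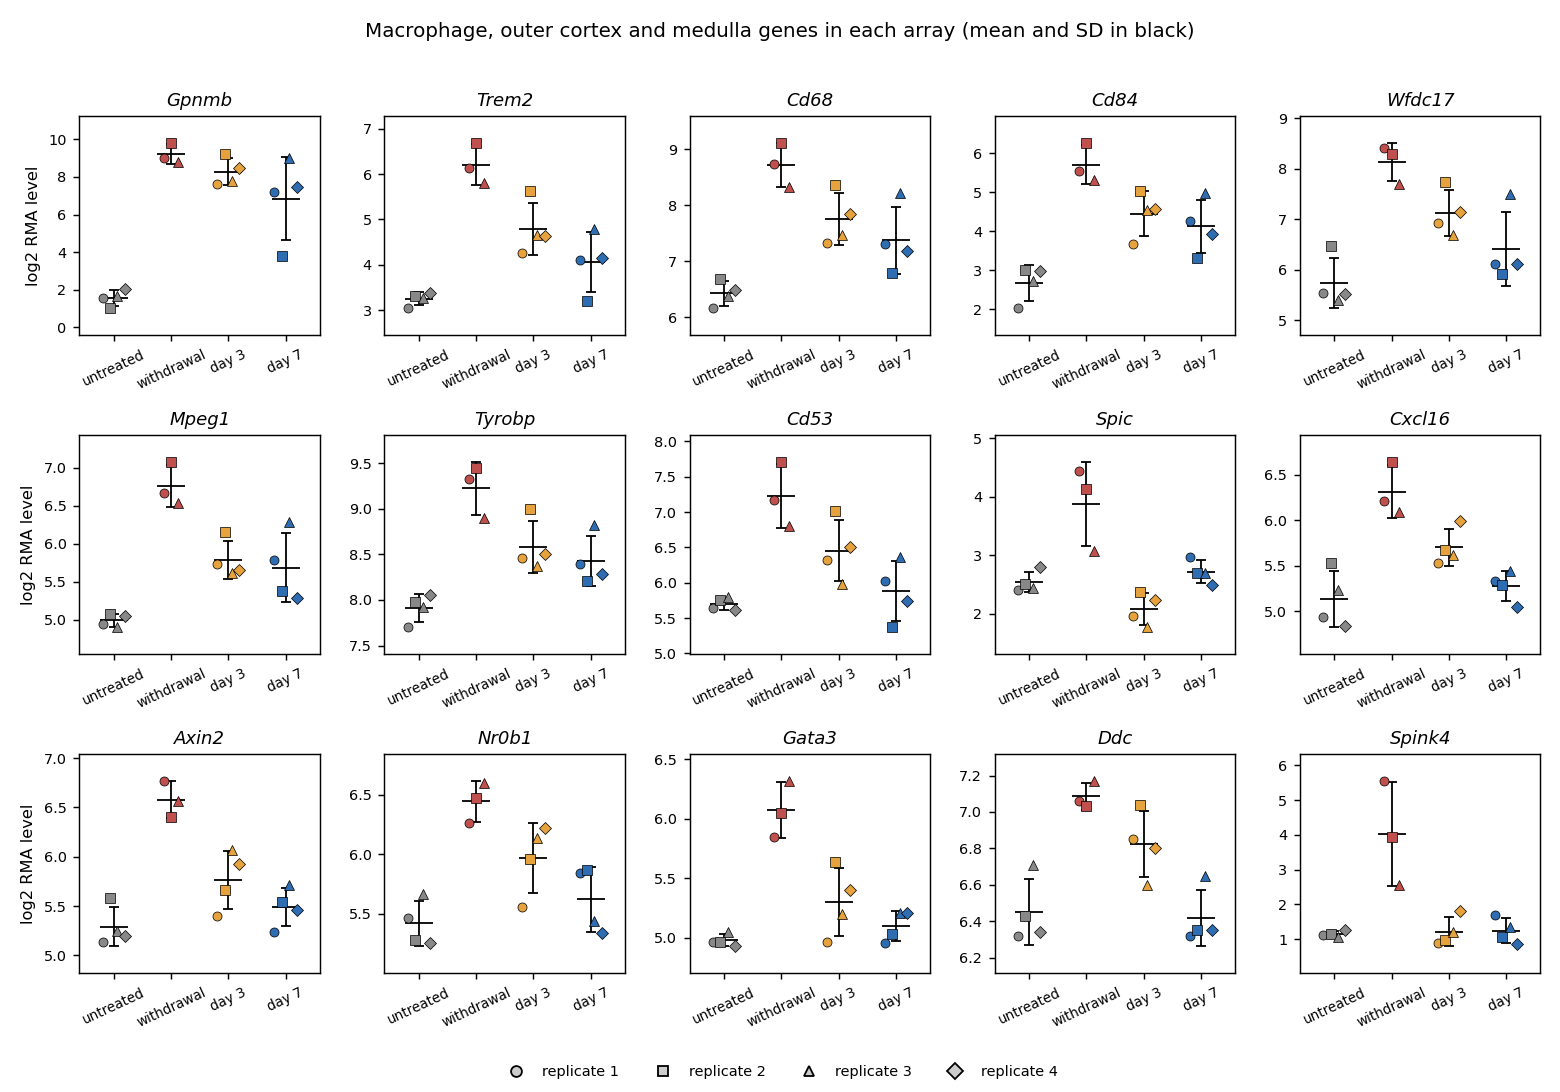
Log2 RMA level (y axis) of 15 genes in each array of the 4 groups (x axis); symbols mark replicate numbers, and black bars give the mean and SD. For all genes shown but Gpnmb the day 7 arrays lie below the withdrawal arrays, and for the macrophage genes of the upper row the third day 7 array (triangle) is the highest of its group.

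Some medullary genes were lower and some vascular genes higher at day 7. Chromaffin cells of the medulla make catecholamines, and 2 of 20 measured markers fell and none rose, with a median of -0.43 and 10 lower at an unadjusted p under 0.05. Gata3, a transcription factor of chromaffin cells, read 5.85, 6.05 and 6.32 at withdrawal and 4.96, 5.03, 5.21 and 5.21 at day 7 (-0.97 ± 0.14, adjusted p = 0.00282). Ddc, aromatic amino acid decarboxylase, read 7.06, 7.03 and 7.17 against 6.32, 6.35, 6.65 and 6.35 (-0.67 ± 0.13, adjusted p = 0.0122). Both calls held with each array left out. The defining enzyme gene Th, tyrosine hydroxylase, overlapped, at 9.77, 9.94 and 9.86 against 9.33, 9.2, 10.03 and 9.79 (adjusted p = 0.76), and Chga differed by -0.41 ± 0.13 without passing (adjusted p = 0.155).

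Of 18 endothelial genes, 3 rose and none fell, 16 means were higher, and 11 were higher at an unadjusted p under 0.05 (median 0.33). Aplnr, the apelin receptor of sprouting vessels, read 4.87, 3.86 and 5.05 at withdrawal and 6.04, 5.84, 6.74 and 6.42 at day 7 (1.67 ± 0.27, 3.17-fold, adjusted p = 0.00466). Kdr, the main VEGF receptor, rose by 0.75 ± 0.17 (adjusted p = 0.033) and the tight junction gene Cldn5 by 0.73 ± 0.15 (adjusted p = 0.0185). The mean of the 18 genes was 5.36 to 5.41 at withdrawal and 5.7 to 5.97 at day 7, with no overlap. The count of 3 became 1 without the third withdrawal array and 5 without the third day 7 array. With only the arrays of the 2 groups in the fit it was 0. Aplnr held with each array left out, Kdr lost its call without withdrawal array 1, 2 or 3 or day 7 array 1 or 2 (adjusted p up to 0.118), and Cldn5 without withdrawal array 3 or day 7 array 1 (up to 0.0678).

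**Figure D5:**
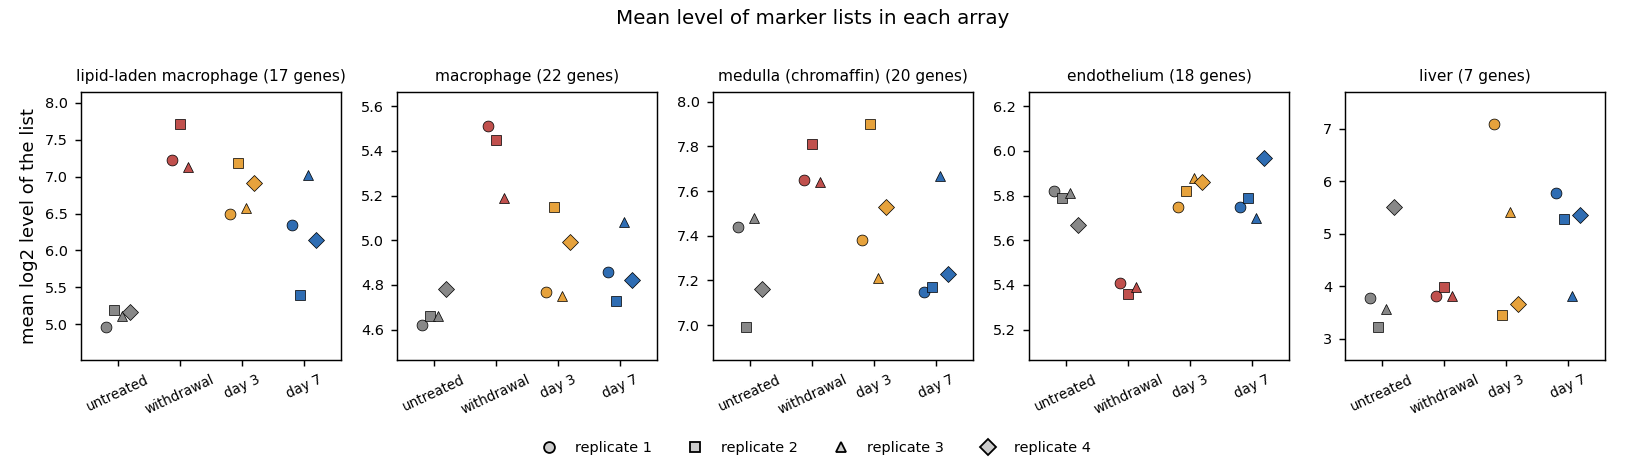
Mean log2 level (y axis) of 5 marker lists in each array of the 4 groups (x axis); symbols mark replicate numbers. Lipid-laden macrophage means at day 7 run from 5.39 to 7.02, below the 7.13 to 7.71 of withdrawal and above the 4.96 to 5.19 of untreated glands, and the third day 7 array has the lowest liver mean, 3.82.

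Receptors, channels and enzymes of other kinds were also among the largest falls. Spink4, which encodes a serine protease inhibitor, read 5.55, 3.93 and 2.57 at withdrawal and 1.7, 1.05, 1.36 and 0.87 at day 7 (-2.77 ± 0.47, adjusted p = 0.00669), so that it was near the floor at day 7 and widely spread before. The vasopressin receptor gene Avpr1a went from 6.45, 5.02 and 4.27 to 3.62, 3.71, 3.71 and 3.32 (-1.66 ± 0.34, adjusted p = 0.0226), also from a wide spread. Ggt5, an enzyme of leukotriene and glutathione metabolism, fell more evenly, from 6.84, 6.29 and 6.13 to 4.68, 4.76, 5.23 and 5.11 (-1.47 ± 0.20, adjusted p = 0.00175). Spink4 and Ggt5 held with each array left out, and Avpr1a lost its call without withdrawal array 2 or day 7 array 1 or 4 (adjusted p up to 0.0664).

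The potassium channel gene Kcnk5 (-1.69 ± 0.35, adjusted p = 0.0227), the GABA receptor subunit gene Gabrg3 (-1.61 ± 0.32, adjusted p = 0.0183) and Abcd2, a peroxisomal fatty acid transporter (-1.51 ± 0.27, adjusted p = 0.0107), fell about as far. The 14 were completed by Fzd10os (-1.43) and the zinc finger gene Zfp872 (-1.38), whose day 7 arrays, at 1.45, 2.03, 1.84 and 1.74, were near the floor. Each of these 5 lost its call without at least 1 array: Kcnk5 without withdrawal array 1 or 2 or day 7 array 1 or 4 (adjusted p up to 0.099), Gabrg3 (0.0828) and Fzd10os (0.0792) without withdrawal array 1 or day 7 array 2, Zfp872 without withdrawal array 1 (0.0603) and Abcd2 without withdrawal array 2 (0.0504). Of smaller size were the falls of Igf1 (-0.81 ± 0.17, adjusted p = 0.0266) and Igfbp6 (-0.56 ± 0.12, adjusted p = 0.0293), 2 of 11 genes of the insulin-like growth factor axis, and of the PAR bZIP factor gene Hlf, 1 of 15 clock genes (6.02, 6.09 and 6.17 against 5.29, 5.02, 5.4 and 5.43; adjusted p = 0.00658). Kcna4, a voltage-gated potassium channel gene, rose by 0.55 ± 0.13 (adjusted p = 0.0414), 1 of 14 channel genes; its second probe set, near the floor, went the other way without passing (-0.49, adjusted p = 0.114). Of these smaller differences Hlf held with each array left out; Igf1 held only without day 7 array 1 or 3, Igfbp6 only without withdrawal array 3 or day 7 array 4, and Kcna4 only without withdrawal array 1 (adjusted p in the other fits up to 0.179).

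In 24 of the 48 lists no member passed. Glucocorticoid receptor targets were among them, 0 of 19 by limma (5 at an unadjusted p under 0.05), with Fkbp5, a standard target, at 5.22, 5.29 and 5.56 at withdrawal and 5.23, 4.82, 5.55 and 4.93 at day 7. Matrix genes (0 of 20; 10 at an unadjusted p under 0.05), immediate early genes (0 of 18; 5), interferon-stimulated genes (0 of 12; 6), p53 targets (0 of 15; 0) and genes of the unfolded protein response (0 of 15; 0) gave no call. The same held for 9 MHC class II genes, 12 neutrophil, 8 mast cell, 10 T cell, 9 B cell, 12 smooth muscle, 9 Schwann cell, 9 adipocyte, 2 red blood cell, 8 kidney and 6 pancreas genes. Among these the Schwann cell list had 5 members lower at an unadjusted p under 0.05 and the others at most 2 in a direction.

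Day 7 was also set beside the day 3 and untreated arrays, which share the day 7 arrays with the comparison above. No gene passed against day 3 (0 by limma, 1516 at an unadjusted p under 0.05; lowest adjusted p 0.0764, for Cyp4b1-ps2 and Fam111a). Against untreated glands 4 genes passed, which is 0.0187% of those tested, 3 higher (0.014%) and 1 lower (0.00466%). If the age label gives the age at the start, the untreated mice were younger at harvest than the day 7 mice. The gap would be the 14 days of treatment and the 7 days of recovery. Age and treatment then cannot be told apart in any comparison with untreated glands. Mrap was lower at day 7 (8.32 against 9.13 in untreated glands; -0.81 ± 0.12), and Gpnmb (6.85 against 1.57; 5.28 ± 0.76), the metalloprotease gene Mmp12 (6.08 against 3.52; 2.56 ± 0.36) and Tmem71 (5.04 against 4.31; 0.73 ± 0.11) were higher, all with an adjusted p of 0.0362.

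Other genes described here had day 7 means on either side of the untreated ones. Cyp21a1 averaged 9.47 at day 7, 9.44 at day 3 and 9.56 untreated, Scarb1 10.05, 10.08 and 10.18, Dhcr7 8.36, 8.36 and 8.58, and Mapk13 7.13, 7.21 and 7.34. Trem2 averaged 4.06 at day 7, 4.79 at day 3 and 3.25 untreated, and Cd68 7.37, 7.75 and 6.43. A difference that misses the threshold does not show that a level had returned.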

How the data were processed

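The authors deposited log2 expression values for biotin-labelled RNA of whole adrenals; RMA and oligo are the tools that the submitters' processing notes name, without the settings, which the sources used here do not give. Of 32736 probe sets, 22399 carry 1 gene symbol in the platform annotation, and the one with the highest mean stood for each of the 807 genes with several, which left 21439 genes. All 15 arrays entered 1 model by group (limma 3.58.1 in R 4.3.3, lmFit and eBayes, Benjamini-Hochberg over all genes, threshold 0.05). P-values measure the spread between these arrays, whose number limits the precision. In simulated data, 30% of genes changed by 0.5 log2 were recovered, 77% at 1 and 96% at 2. That simulation gave each gene independent normal noise, without effects shared by the genes of an array. Its shares therefore need not hold for these arrays. Named genes are the 14 largest rises and falls that passed without overlap (no predicted genes, clones, small RNAs or receptor families), up to 5 called members of each list, and 28 genes given whatever their values; others were chosen after their values were seen. Members and lists were chosen with earlier results of these data known, and lists are described by counts and medians. Alternatives were the arrays of the compared groups alone, other scalings, a filter on dim probe sets, another probe set rule, a trended and robust eBayes, the replicate number as a block, and each array left out.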

Additional observations from a re-analysis of the deposited data

Results flagged for a closer look

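Among the 4 day 7 arrays, 6 of the 91 named genes had a single array set apart from its fellows by Dixon's criterion, which chance meets in about 1 group of 20. In the third array, Wfdc17 was at 7.51 (the others 5.91 to 6.11), Lgr5 at 7.34 (6.77 to 6.86) and Ddc at 6.65 (6.32 to 6.35), which in each case is nearer to the withdrawal arrays. In the first array, Serpina6 was at 5.07 (4.07 to 4.15) and Tmem144 at 4.65 (4.36 to 4.41), each further from withdrawal than the rest. In the second array, Top2a was at 4.34 (4.88 to 4.99).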

How the results depend on the processing

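The counts (210 higher and 194 lower at day 7 than at withdrawal) changed with the arrays in the fit, the scaling and the block. At least 2-fold, 53 and 46 remained; with only the arrays of the 2 groups, 94 and 60 passed; with median centring of each array, 391 were higher. With the replicate number as a block, 133 and 88 passed. The titles do not say whether the numbers pair samples. Deviations from the group means of same-numbered withdrawal and day 7 arrays had correlations of 0.022, -0.0504 and -0.092. Those of differently numbered arrays ran from -0.0403 to 0.0738. In groups this small such values cannot settle whether the samples were paired. Leaving out each array in turn gave 125 to 189 higher and 75 to 226 lower genes, the lowest of both without the second withdrawal array. Against day 3, the count stayed at 0 under all alternatives that kept every array, and leaving out an array gave 0 to 1 higher and 0 to 7 lower genes, 7 without the first day 3 array. Against untreated glands, 3 higher and 1 lower became 0 and 0 with only the arrays of the 2 groups and with the block, the trended and robust eBayes gave 1 higher, and leaving out an array gave 0 to 4 higher and 0 to 5 lower. Of the named differences, none that passed changed sign under these alternatives; of those that did not pass, Srebf2 ran from -0.32 to 0.13 and Shh from -0.19 to 0.11 as arrays were left out. Of the 74 named differences that passed, 33 did so in all 7 fits that left out a withdrawal or day 7 array; 43 were lost with only the arrays of the 2 groups, 32 with the block, 4 with median centring (Apoe, Ccl9, Ctss, Lgr5), 4 with further quantile normalization (Apoe, Ccl9, Fech, Star) and 1 when the most variable probe set stood for a gene (Cyp11a1). With only the arrays of the 2 groups, the lower counts also went from 4 to 1 for lipid-laden macrophages, from 2 to 0 for iron-recycling macrophages and the IGF axis, and from 2 to 1 for chemokines and WNT signalling. The cause was not tested. The alternatives for day 3 and untreated glands were chosen after seeing the data.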

Other observations

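Several other genes passed by limma without overlap between the groups; those given here were chosen after their values were seen, and no list of them was tested. Pcx, which encodes pyruvate carboxylase and refills the citric acid cycle, rose from a mean of 5.16 to 6.36 (1.20 ± 0.12 SE, adjusted p = 0.000248). The enzyme genes Acadm, Hadh, Echs1 and Hadha, which act in mitochondrial fatty acid oxidation, were higher: Acadm by 0.52 ± 0.09, Hadh by 0.49 ± 0.10, Echs1 by 0.64 ± 0.12 and Hadha by 0.43 ± 0.09. Gramd1b encodes a protein that carries cholesterol from the plasma membrane to the endoplasmic reticulum, and it rose from 7.17 to 8.33 (1.16 ± 0.12, adjusted p = 0.000298). The defensin genes Defb25 (1.31 ± 0.21) and Defb36 (0.98 ± 0.18) were higher, as Defb19 was. Gpihbp1, which anchors lipoprotein lipase in capillaries, rose from 7.22 to 8.18 (0.96 ± 0.12, adjusted p = 0.000653), and the endothelial genes Bcl6b (1.32 ± 0.20) and Cd300lg (1.16 ± 0.25) were higher.

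Lower genes included the leukocyte genes Cd48 (-1.34 ± 0.24), Clec12a (-1.26 ± 0.21), Plek (-1.11 ± 0.20) and Ncf4, a subunit of the phagocyte oxidase (-1.11 ± 0.20), with adjusted p values between 0.00555 and 0.0108. Pltp, the phospholipid transfer protein of lipoproteins, fell from 6.97 to 5.99 (-0.99 ± 0.16, adjusted p = 0.00554). The cytokine signalling inhibitor gene Socs2 fell by 1.21 (SE 0.25), the G protein-coupled oestrogen receptor gene Gper1 by 1.10 (SE 0.24), and the intermediate filament gene Vim from 8.42 to 7.62 (adjusted p = 0.0185).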
